A study of Mus musculus with 49 samples.

Results

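Among leukaemias started by the MLL-AF9 (MA9) fusion in different normal blood cells, a few genes were measured as present in one leukaemia group and near 0 in another. The 6 genes Etohi1, Gm4631, Atp5g2, Bmyc, Dynlt1-ps1 and Gm12751, of 38253 genes in the deposited table, were followed in all 49 labelled samples. They were picked because their values differed between leukaemia groups. Differences between leukaemias in these 6 genes are therefore given below as a description with no test, and tests were kept for the normal samples and for other genes. The question was whether the presence and absence seen in the leukaemias had a counterpart in the normal cells in which those leukaemias were started, and what sequence the 6 genes share with the rest of the genome.

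The normal samples were cells sorted from the bone marrow of female wild-type C57BL/6J mice aged 6 to 12 weeks. There were 5 samples of LT-HSC and 5 of ST-HSC, the stem cells with long-lasting and with short-lived repopulating ability. MPP (multipotent progenitors) gave 6 samples, and the myeloid progenitors gave 5 of CMP (common), 5 of GMP (restricted to granulocytes and macrophages) and 4 of MEP (restricted to megakaryocytes and red cells). By the study's methods the stem cells and MPP were sorted as lineage-negative cells with Sca-1 and c-Kit, parted by CD150 and CD34, and an Fc receptor gate was used among the myeloid progenitors. For the leukaemias, ST-HSC, MPP, CMP or GMP of the same strain were infected with a retrovirus carrying MLL-AF9 and green fluorescent protein (GFP), and transplanted into irradiated recipients whose own blood cells were not all removed. The GFP+ cells sorted from sick recipients are named after the cell infected, with 3 samples of STHSC:MA9, 6 of MPP:MA9, 4 of CMP:MA9 and 6 of GMP:MA9. The labels give bone marrow as the tissue of the leukaemias, whereas the study's methods give spleen. Every sample was wild type apart from the retrovirus, each came from its own mouse, and the labels do not tell which samples belong to which replicate experiment.

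Expression was given as FPKM, a fragment count scaled to transcript length and library size, so levels of different genes can be set side by side per length. Each sample held 15282 to 17852 genes with a value above 0. The 12 genes chosen as ones every cell uses were never below 23.0 FPKM in any of the 49 samples. Flt3 was between 77.8 and 92.0 FPKM in MPP, Gata1 between 49.5 and 55.3 in MEP, and Mpo at least 10745 in GMP. In sum, the multipotent list was highest in MPP (541.7 to 622.4) and the GMP list in GMP (16771.3 to 25331.5). Other lists did not part the groups. The stem list had 249.6 to 386.6 in MPP, above most of ST-HSC. The MEP list reached 2807 in LT-HSC and 2736 in CMP, against 2788 to 3275 in MEP. Red cell markers reached 50818 in LT-HSC and 27504 in ST-HSC. The leukaemias had at most 0.41 FPKM of Gata1 and at most 0.47 of Procr. Procr did not stand for all 5 stem markers listed. Their sum was 19.3 to 36.2 FPKM in STHSC:MA9, 4.61 to 79.7 in MPP:MA9, 2.7 to 7.97 in CMP:MA9 and 0.4 to 57.6 in GMP:MA9, against 141.3 to 263.7 in ST-HSC. The sum of 5 mature granulocyte markers ranged widely, from 15784 to 42648 FPKM in STHSC:MA9, from 591.7 to 39494 in MPP:MA9, from 1103 to 27767 in CMP:MA9 and from 1095 to 13185 in GMP:MA9. Among normal cells it ran from 18.97 to 61823 in LT-HSC and from 42.07 to 36251 in ST-HSC. In bulk RNA, fewer cells of a type and less RNA per cell cannot be told apart.

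Etohi1 and Gm4631 belong to a large tandem array of zinc finger genes on chromosome 2. Proteins of this C2H2 class bind DNA through repeated fingers joined by a short conserved linker, and many of them silence transposable elements and differ in copy number between mouse strains. Atp5g2 codes for a copy of subunit c of the mitochondrial ATP synthase, the rotating ring that turns proton flow into ATP, which every respiring cell needs. Bmyc codes for a short relative of the transcription factor Myc that lacks its DNA-binding end. Dynlt1-ps1 is annotated as a pseudogene of the dynein light chain Dynlt1, a part of the motor that walks along microtubules, and Gm12751 as a pseudogene whose parent, Polr1d, codes for a shared subunit of RNA polymerases I and III. A processed pseudogene arises when a spliced mRNA is copied back into the genome, so its sequence can match that of its parent, and short reads from one can then be assigned to the other.

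All 6 members shared sequence with other genes. Positions are in the NCBIM37 (mm9) assembly with the GENCODE M1 annotation, and sharing is the percent of a gene's 31-base exon windows found in the exons of another annotated gene. Etohi1 (ENSMUSG00000074519, chromosome 2, 177757989 to 177768727, plus strand) shared 69.8% and Gm4631 (ENSMUSG00000078899, chromosome 2, 175147456 to 175163698, minus strand) shared 57.1% of their windows. Atp5g2 (ENSMUSG00000062683, chromosome 15, 102493299 to 102501478, minus strand) shared 64.6% and Bmyc (ENSMUSG00000049086, chromosome 2, 25562399 to 25563237, plus strand, 1 exon) shared 55.3%. Dynlt1-ps1 (ENSMUSG00000082691, chromosome 6, 135299426 to 135299767, minus strand) shared 64.4% and Gm12751 (ENSMUSG00000062554, chromosome 4, 34301292 to 34301672, plus strand) shared 84.0%. Of the table's genes, 5185 are not in this annotation and could not enter the search.

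For 4 members the sharing was exact over long stretches. A block of 441 of the 647 exon bases of Atp5g2, which holds its whole coding sequence, occurs without a single difference in the pseudogenes Gm10175 on chromosome 7 and Gm10231 on chromosome 17, each of which is 441 bases long. All 342 bases of Dynlt1-ps1 occur in the spliced exons of Dynlt1a, with 0 differences. In the same way 355 of the 381 bases of Gm12751 match Polr1d, and a stretch of 1309 bases of Gm4631 matches Gm2026. Coding stretches (pseudogene stretches for the copies) are printed 5′ to 3′ to show what a read from these loci looks like. In lower case throughout, they carry no difference between the genes named on the line.
Atp5g2, Gm10175 and Gm10231: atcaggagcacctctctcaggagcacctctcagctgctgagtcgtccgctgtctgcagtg
Dynlt1-ps1, Dynlt1c and Dynlt1a: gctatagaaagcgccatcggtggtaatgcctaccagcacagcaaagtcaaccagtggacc
Gm12751 and Polr1d: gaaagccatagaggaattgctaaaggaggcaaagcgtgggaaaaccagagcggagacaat
Gm4631 and Gm2026: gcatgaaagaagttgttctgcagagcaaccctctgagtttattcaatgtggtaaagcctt
These stretches lie at chr15:102496227-102496286, chr7:24732153-24732212 and chr17:5816542-5816601 for the first line (all on the minus strand), at chr6:135299639-135299698, chr17:6650062-6650121 and chr17:6311773-6311832 for the second (minus strand), at chr4:34301318-34301377 and chr5:147912805-147912864 for the third (plus strand), and at chr2:175151490-175151549 (minus strand) and chr2:175976651-175976710 (plus strand) for the last. Reads from inside them cannot be assigned by their sequence alone.

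Etohi1 is shown beside Gm14326, the gene whose expression over the samples was most like its own. Gm14326 holds 26.8% of the windows of Etohi1, fewer than Gm14288 with 43.6%, and it is not the nearest gene. The best alignment of Etohi1 with Gm14326 covered 1981 bases, of which 1795 were identical (90.6%). A coding stretch of Etohi1 at chr2:177765964-177766023 (plus strand) and its counterpart in Gm14326 at chr2:177683205-177683264 (minus strand) are shown with the 6 differing bases in capitals.
Etohi1: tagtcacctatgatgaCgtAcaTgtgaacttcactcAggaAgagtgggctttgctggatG
Gm14326: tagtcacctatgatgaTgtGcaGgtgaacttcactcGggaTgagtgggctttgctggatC
The motif ACNGGNGANAANCC, the bases that can code the zinc finger linker, was found 11 times in the exons of Etohi1 and 13 times in those of Gm4631 (both strands searched), and was not found in the other 4 members. It occurred in the exons of 40 of the 42 further genes of the table that hold at least 10% of the windows of Etohi1 or Gm4631, and in 1.88% of the 33068 annotated genes. These 42 genes, 34 annotated as protein coding and 8 as pseudogenes, all lie on chromosome 2 between 174835742 and 177813181 and are called the zinc finger region below.

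Etohi1 was present in every normal sample and was near 0 in all GMP:MA9 leukaemias. In GMP:MA9 it was listed at 0 in 4 samples and at 0.09 and 0.22 FPKM in the others. In CMP:MA9 the 4 samples had 0.41, 0, 10.3 and 11.4 FPKM. The 3 STHSC:MA9 samples had 29.8, 21.7 and 16.9, and the MPP:MA9 samples ran from 18.7 to 35.6 with a median of 26.3. Thus every STHSC:MA9 and MPP:MA9 sample lay above every CMP:MA9 and GMP:MA9 sample, and the CMP:MA9 samples were spread over both levels. Etohi1 was picked on these leukaemias, and the share of all genes parted in this way was not counted.

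In the 30 normal samples Etohi1 lay between 7.55 and 24.0 FPKM, so that the loss in GMP:MA9 had no counterpart in a normal group. The 5 GMP samples had 12.1, 7.55, 10.3, 11.2 and 12.5 FPKM and the 5 CMP samples had 15.9, 9.75, 14.7, 14.6 and 9.53. By median the order was ST-HSC (19.1), CMP (14.6), LT-HSC (11.8), GMP (11.2), MPP (10.8) and MEP (9.54), and the ranges of neighbours in this order overlapped throughout. Across the 6 normal groups Etohi1 missed the threshold (limma F test on log2(FPKM + 1), adjusted p = 0.0714), where 78.4% of 12367 genes passed; it passed with median-ratio scaling, with the replicate number as a block and with the GC and length correction, and without LT-HSC replicate 1 or 5, ST-HSC replicate 2 or MPP replicate 6, its adjusted p running from 0.0112 to 0.176 over all such omissions. Of its 6 tested differences, those among ST-HSC, MPP, CMP and GMP, the largest was 0.55 ± 0.22 log2 units (SE) higher in ST-HSC than in GMP (95% interval 0.10 to 1.00, limma adjusted p = 0.0439), which did not reach the 2-fold change asked of a call.

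Gm4631 followed the same course at other levels. The GMP:MA9 samples ranged from 0.04 to 1.41 FPKM with a median of 0.455, and the 4 CMP:MA9 samples had 0.46, 0.13, 4.63 and 7.62. STHSC:MA9 had 9.51, 10.3 and 6.89, and MPP:MA9 ran from 13.5 to 18.6. As for Etohi1, CMP:MA9 replicates 1 and 2 were near GMP:MA9 and replicates 3 and 4 were closer to STHSC:MA9. All 30 normal samples held Gm4631, between 11.3 and 39.9 FPKM, and the normal groups showed no called difference (limma F test, adjusted p = 0.695). The 95% intervals of its 6 differences among ST-HSC, MPP, CMP and GMP lay within -0.79 to 0.54 log2 units, so that a change over 2-fold in any of these pairs fell outside them.

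**Figure D1:**
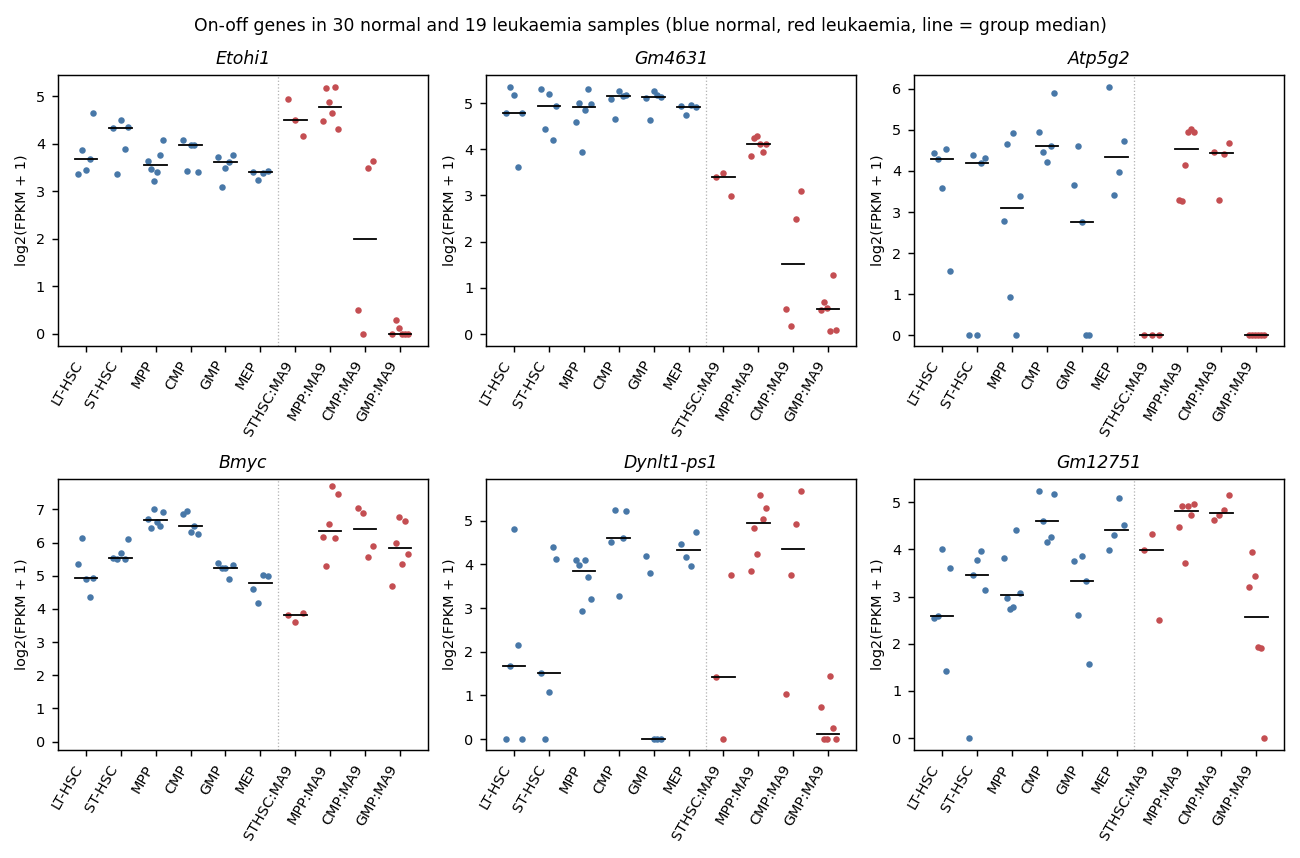
Expression of the 6 members as log2(FPKM + 1) (y axis) in the 10 groups (x axis), one point per sample, blue for the 30 normal and red for the 19 leukaemia samples, with a line at each group's median. Etohi1 and Gm4631 are present in all 30 normal samples, Atp5g2 is at 0 in the 9 STHSC:MA9 and GMP:MA9 samples and also in 5 normal samples, and Bmyc is above 0 in every sample.

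Among the leukaemias, the rest of the zinc finger region was in sum also lowest by median in GMP:MA9. The summed FPKM of the 42 genes, without Etohi1 and Gm4631, was between 83.1 and 247.3 in every normal sample, with 24 to 32 of the genes at 1 FPKM or more. It was 66.8, 68.6 and 36.3 in the STHSC:MA9 samples and between 59.1 and 90.8 in MPP:MA9. In the CMP:MA9 samples the sum was 5.09, 1.73, 25.1 and 50.1, and in GMP:MA9 it ran from 1.35 to 10.5 with a median of 4.73. Every STHSC:MA9, CMP:MA9 and GMP:MA9 sample therefore lay below every normal sample, whereas the highest MPP:MA9 sum (90.8) was above the lowest normal sum (83.1). How often other sets of genes do so was not counted. Against their normal cells, MPP:MA9 lay below MPP (117.03 to 165.07) and STHSC:MA9 below ST-HSC (134.25 to 247.33). Etohi1 was instead higher in MPP:MA9 than in MPP and overlapped between STHSC:MA9 and ST-HSC. CMP:MA9 was again spread, in the same order of samples as for Gm4631.

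Between leukaemias, 15 of the 42 region genes passed the filter of a mean of 1 FPKM over the 19 samples; the other 27 were lower and were not tested. Of the 15, 14 were higher in MPP:MA9 than in GMP:MA9 (limma, adjusted p below 0.05 and a change over 2-fold) and 0 were lower, where 1.39% of all 12128 genes were called higher and 0.833% lower. The largest of these were Gm14326 (2.75 ± 0.35 log2 units, adjusted p = 7.27e-05), Gm4724 (2.49 ± 0.25, adjusted p = 1.07e-05) and Gm14410 (2.37 ± 0.32, adjusted p = 0.000106). The region was listed after the members' values were known, passing the filter required expression in at least one leukaemia group, and its genes can share reads with Etohi1 and Gm4631, so the count is not independent of them. STHSC:MA9 held 5 of the 15 higher than GMP:MA9 (0.313% of all genes were called higher) and 3 higher than CMP:MA9 (0.165% higher, 0.198% lower). MPP:MA9 held 4 higher than CMP:MA9 (0.0989% higher, 0.0165% lower). Between STHSC:MA9 and MPP:MA9 only Gm14305 differed, at 1.11 ± 0.29 log2 units lower in STHSC:MA9 (adjusted p = 0.0194, with 2.47% of all genes called lower; lost with a pseudocount of 0.1, the block, or without STHSC:MA9 replicate 1 or 3), and 0 of the 15 were called between CMP:MA9 and GMP:MA9, where limma called 0.206% of all genes and 0 of the 15 had an adjusted p below 0.05.

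Region genes were then set beside the normal cells of the same name. Among region genes whose mean over both groups reached 1 FPKM, all GMP:MA9 samples lay below all GMP samples for 25 of 27 genes, where this held for 19.6% of 11976 genes. The same was so of 22 of 28 genes for CMP:MA9 against CMP (29.6% of all genes), 14 of 28 for STHSC:MA9 against ST-HSC (20.9%) and 7 of 28 for MPP:MA9 against MPP (21.5%), the last being near the share of all genes. A region gene near 0 in a leukaemia passed this filter only through the normal group, which by itself puts it lower in the leukaemia, so these counts are a description, and the difference between origins was not tested. In none of the 4 comparisons did a region gene have all leukaemia samples above all normal samples, where this held for 19.1% to 21.1% of all genes. The filter bears on this count in the same way. Among the normal groups, 32 region genes were tested and only Gm14434 and 2210418O10Rik were called in any of the 6 pairs. Gm14434 was lower in ST-HSC than in MPP (1.31% of all genes were called higher and 2.13% lower there) and than in GMP, and 2210418O10Rik was higher in ST-HSC than in GMP (9.77% higher, 4.83% lower).

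**Figure D2:**
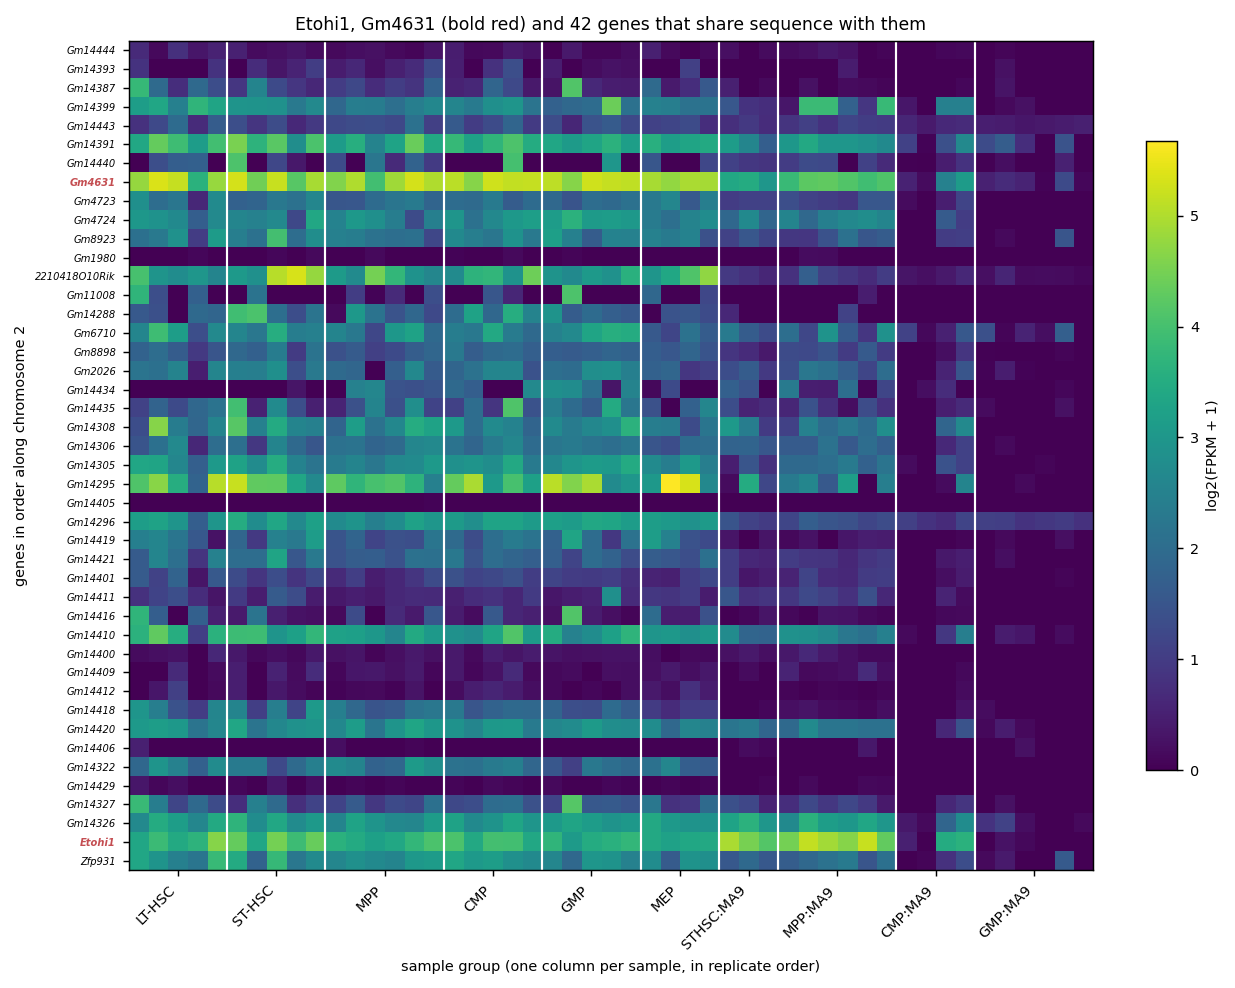
Heat map of log2(FPKM + 1), colour from dark (0) to yellow, for Etohi1 and Gm4631 (bold red) and the 42 further genes of the zinc finger region, with genes as rows in order along the chromosome and the 49 samples as columns grouped by cell type. Of the 42 genes, 24 to 32 reach 1 FPKM in each normal sample, 11 to 21 in STHSC:MA9, 18 to 23 in MPP:MA9 and 0 to 4 in GMP:MA9, and the 4 CMP:MA9 columns have summed FPKM of 5.09, 1.73, 25.1 and 50.1.

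Against their normal cells, Etohi1 and Gm4631 differed in detail. For Etohi1 all 6 MPP:MA9 samples lay above all MPP samples, whose highest was 15.9 FPKM, and all 6 GMP:MA9 samples lay below all GMP samples. Its STHSC:MA9 and CMP:MA9 samples overlapped with ST-HSC and CMP. For Gm4631 the leukaemia samples lay below all samples of their normal cell for STHSC:MA9, CMP:MA9 and GMP:MA9 and overlapped with them for MPP:MA9. Across all genes, every leukaemia sample lay below every normal sample for 19.6% to 29.6% of genes, depending on the origin. Every MPP:MA9 sample lay above every MPP sample for 19.2% of 12663 genes.

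Atp5g2 had the sharpest division among the leukaemias. No STHSC:MA9 sample (of 3) and no GMP:MA9 sample (of 6) had a value other than 0. The 6 MPP:MA9 samples had between 8.63 and 31.6 FPKM, with a median of 23.3, and the 4 CMP:MA9 samples had 21.1, 8.73, 20.3 and 24.7. Only 1 other gene of the table was at or under 0.1 FPKM in all STHSC:MA9 and at or over 1 FPKM in all MPP:MA9 samples, and 4 others had this form between GMP:MA9 and MPP:MA9, of which 3 were zinc finger region genes. Etohi1 fell just short of it, with 1 GMP:MA9 sample at 0.22.

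Unlike Etohi1, Atp5g2 was listed at 0 in some normal samples as well. The 5 ST-HSC samples had 0, 20.1, 0, 17.4 and 19.03 FPKM and the 5 GMP samples had 11.6, 23.5, 5.82, 0 and 0. Of the 6 MPP samples 1 was at 0 and another at 0.9, with a highest value of 29.3. The 5 CMP samples had 30.03, 21.1, 17.7, 23.2 and 58.3, and the LT-HSC (1.95 to 22.1) and MEP (9.68 to 65.0) samples were all above 0. Of the 5 zeros in normal samples, 4 thus fell in ST-HSC and GMP, the groups whose leukaemias were all at 0, but 6 of those 10 normal samples were above 5 FPKM. Between normal groups Atp5g2 missed the threshold of the F test (limma, adjusted p = 0.0965), although it passed without GMP replicate 2 (0.0454), and it was higher in CMP than in GMP by 2.62 ± 1.01 log2 units (limma adjusted p = 0.0432), where 7.94% of genes were called higher and 3.31% lower. This call was lost with a pseudocount of 0.1, without the filter, with median-ratio scaling, with the GC and length correction and on leaving out any of the 5 CMP samples or GMP replicate 3, 4 or 5.

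The 2 pseudogenes that hold the coding sequence of Atp5g2 were high in every sample. In GMP:MA9, where Atp5g2 was at 0, Gm10175 had 81.7 to 219.0 FPKM and Gm10231 63.4 to 252.5. In MPP:MA9 they had 64.0 to 185.1 and 137.5 to 269.5. Neither was called in any of the 6 leukaemia pairs (limma), with log2 differences between -0.67 and 0.46. The sum of Atp5g2, Gm10175 and Gm10231 had a median of 408.7 FPKM in GMP:MA9, 374.7 in MPP:MA9, 377.4 in CMP:MA9 and 278.3 in STHSC:MA9, and the ranges overlapped between GMP:MA9 (145.0 to 447.7) and each of the other three. Atp5g2 itself took from 0% to 12.3% of this sum in any sample, and 1.89% to 8.33% in MPP:MA9. How the authors' software divided reads between these copies was not tested.

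Dynlt1-ps1 showed the same kind of scatter. It was at 0 in 3 GMP:MA9 samples, at 0.19, 0.66 and 1.74 FPKM in the others, and between 13.4 and 47.4 in MPP:MA9. STHSC:MA9 had 1.67, 0 and 12.5, and CMP:MA9 had 1.03, 12.4, 29.6 and 50.1. Among normal samples the 5 GMP had 17.4, 13.0, 0, 0 and 0, the 5 ST-HSC had 1.84, 0, 1.10, 20.1 and 16.4, and the 5 LT-HSC had 0, 2.19, 27.2, 3.42 and 0. All MPP (6.67 to 16.1), CMP (8.68 to 36.8) and MEP (14.5 to 25.6) samples were above 5 FPKM. Low values in GMP:MA9 were thus matched by zeros in 3 of 5 GMP samples, and the 6 MPP and 6 MPP:MA9 samples were all above 5 FPKM.

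Across the normal groups Dynlt1-ps1 differed (limma F test, adjusted p = 0.00671). It was higher in CMP than in GMP by 2.97 ± 0.88 log2 units (adjusted p = 0.00925) and higher in MPP than in GMP by 2.07 ± 0.85 (adjusted p = 0.0470, where 12.0% of genes were called higher and 3.82% lower). The second of these was lost under 17 single-sample omissions and with the median-ratio scaling, the GC and length correction, the block or no filter. Lower in ST-HSC than in CMP by -2.35 (adjusted p = 0.0514), it passed there under 10 alternatives, 9 of them omissions of 1 sample. Dynlt1a, which holds all of its sequence, had a median of 51.0 FPKM in GMP:MA9 and 51.1 in MPP:MA9, and it was called in no leukaemia pair. Dynlt1c, which aligned over 124 of the 342 bases, was lower in STHSC:MA9 than in MPP:MA9 by -0.82 ± 0.24 log2 units (limma adjusted p = 0.0372), in the same direction as Dynlt1-ps1 and under the 2-fold change asked of a call. Dynlt1b, Dynlt1e and Dynlt1f each hold 62.5% of the windows of Dynlt1-ps1, as Dynlt1a does, but have no values in the deposited table. Sums and shares of this family therefore leave them out. Summed over Dynlt1-ps1, Dynlt1a and Dynlt1c, the range was 45.2 to 88.9 FPKM in GMP:MA9 and 91.8 to 147.3 in MPP:MA9. This sum holds the member that was picked on these leukaemias. Dynlt1a and Dynlt1c alone overlapped between the groups, with sums of 45.2 to 88.9 in GMP:MA9 and 73.9 to 118.5 in MPP:MA9. The pseudogene took at most 2.12% of the sum of all 3 in GMP:MA9 and 10.1% to 32.6% in MPP:MA9.

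Gm12751 was graded rather than on or off. The GMP:MA9 samples ran from 0 to 14.3 FPKM with a median of 5.55, and MPP:MA9 from 12.2 to 30.4 with a median of 27.4. CMP:MA9 had 23.5, 25.5, 27.5 and 34.7, and STHSC:MA9 14.9, 19.1 and 4.71. In normal cells the CMP samples were the highest by median, with 36.7, 23.4, 16.7, 18.2 and 35.2, against 12.5, 5.13, 13.6, 9.08 and 1.98 in GMP and 0, 10.1, 12.6, 14.8 and 7.87 in ST-HSC. CMP lay above GMP and above ST-HSC with no overlap, but the share of all genes parted in this way was not counted. MPP had a median of 7.15.

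The normal groups differed in Gm12751 (limma F test, adjusted p = 0.0103; this was lost with a pseudocount of 0.1). It was higher in CMP than in GMP by 1.66 ± 0.57 log2 units (adjusted p = 0.0231) and lower in ST-HSC than in CMP by -1.81 ± 0.57 (adjusted p = 0.0212, where 2.33% of genes were called higher and 1.94% lower). Without ST-HSC replicate 1, the sample at 0, without CMP replicate 1 or 5, or in a fit of only the 2 groups, the second call was lost. Without CMP replicate 1 or 5 or GMP replicate 2 or 5, with a pseudocount of 0.1 or with the GC and length correction, the first was. Polr1d, the gene that holds its sequence, had medians between 83.9 and 109.1 FPKM in the 4 leukaemia groups and was called in none of the 6 leukaemia pairs, and Gm12751 took from 0% to 26.1% of the summed pair.

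**Figure D3:**
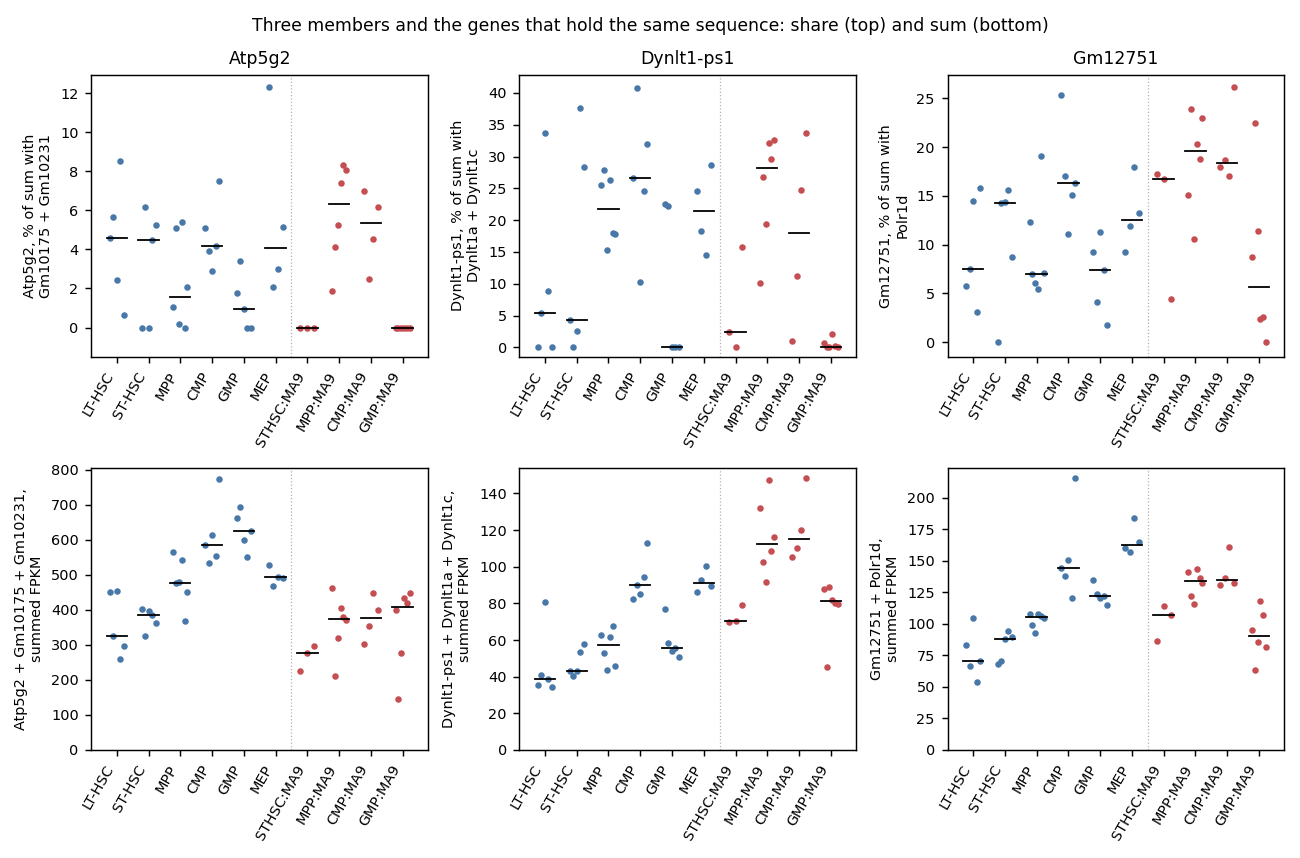
Atp5g2 with Gm10175 and Gm10231, Dynlt1-ps1 with Dynlt1a and Dynlt1c, and Gm12751 with Polr1d, which share their sequence and have values in the deposited table. Each point is a sample, in 10 groups (blue normal, red leukaemia, line at the median). The upper panels give each member's share of the sum in percent and the lower panels the sum in FPKM; Atp5g2 takes 0% in STHSC:MA9 and GMP:MA9 and at most 12.3% anywhere, while the sums are at least 34.5 FPKM in every sample.

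Bmyc was never absent, and differed in level. The 3 STHSC:MA9 samples had 13.2, 11.2 and 13.7 FPKM. They were the lowest of the 49 samples used, the next being a MEP sample at 17.0. The share of all genes with this form was not counted. MPP:MA9 ran from 38.1 to 209.3 with a median of 81.8, GMP:MA9 from 24.8 to 108.8 with a median of 56.2, and the CMP:MA9 samples had 132.1, 116.8, 46.6 and 59.2. STHSC:MA9 was below the 5 ST-HSC samples, which had 45.2, 44.7, 50.7, 44.9 and 68.4, whereas the other leukaemias overlapped with their normal cells. Of 12720 genes, 20.9% had every STHSC:MA9 sample below every ST-HSC sample.

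Bmyc also had the clearest order among normal cells (limma F test, adjusted p = 8.26e-09). By median it was highest in MPP (101.1 FPKM) and CMP (90.0), followed by ST-HSC (45.2), GMP (36.7), LT-HSC (29.3) and MEP (27.0). MPP and CMP were not called apart, and their difference had a 95% interval of -0.32 to 0.56 log2 units. Bmyc was higher in MPP than in GMP by 1.49 ± 0.21 (adjusted p = 1.82e-06), higher in CMP than in GMP by 1.37 ± 0.22 (adjusted p = 1.95e-05) and lower in ST-HSC than in MPP by -1.03 ± 0.21 (adjusted p = 0.00119). The last sat at the 2-fold limit and was no longer past it with the block, the median-ratio scaling or the GC and length correction, or without any one of ST-HSC replicates 1, 2 and 4 and MPP replicates 3 and 6. The lower level of STHSC:MA9 than MPP:MA9 thus had the same sign as that of ST-HSC than MPP. The sign was also shared against CMP, at -2.58 log2 units in the leukaemias and -0.91 in the normal cells. Against GMP the signs were opposite. STHSC:MA9 against GMP:MA9 was -2.08, whereas ST-HSC against GMP was 0.46 (95% interval 0.003 to 0.92, limma adjusted p = 0.0982, not called).

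Bmyc overlaps A230005M16Rik (ENSMUSG00000087612, chromosome 2, 25561370 to 25565236), a non-coding transcript annotated on the opposite strand that shares 55.3% of the windows of Bmyc. How the counting treated strand is not given in the sources used here, so reads from the overlap cannot be told apart. A230005M16Rik was lower in STHSC:MA9 than in MPP:MA9 by -1.83 ± 0.45 log2 units (limma adjusted p = 0.0141, 2.47% of all genes called lower), and in the normal cells it was higher in MPP and in CMP than in GMP, by 1.30 (adjusted p = 9.37e-06) and 1.34 (adjusted p = 1.67e-05). Bmyc took 90.2% to 97.1% of the summed pair in each sample. Of 11 tested genes of the wider Myc network, which pairs Myc with its partner Max and its competitors, 0 were called in any leukaemia pair (limma, with 4.82% of all genes called in at least 1; 5 pair-wise values had an adjusted p below 0.05), and 3 (Myc, Mycn and Mxd3) were called among normal pairs. Myc was higher in MPP than in GMP by 1.12 ± 0.17 and in CMP than in GMP by 1.18 ± 0.18.

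Counted over the 6 members, 8 of the 36 tests in normal pairs were called. They were 3 for Bmyc, 2 for Dynlt1-ps1, 2 for Gm12751 and 1 for Atp5g2, and none for Etohi1 or Gm4631. Of the 6 members, 4 were called between CMP and GMP, where 11.2% of all 12367 genes were called in either direction. Between MPP and GMP it was 2 members (15.8% of all genes), between ST-HSC and MPP 1 (3.44%), between ST-HSC and CMP 1 (4.27%), and between ST-HSC and GMP (14.6%) and MPP and CMP (4.32%, with 2.83% higher in MPP) it was none. All 6 members passed the filter on low values in both fits. For the leukaemias, where the same rule was part of how the members were picked, 5 of the 6 were past it between MPP:MA9 and GMP:MA9 (2.23% of all genes), 3 each between STHSC:MA9 and MPP:MA9 (2.88%), STHSC:MA9 and GMP:MA9 (0.536%) and CMP:MA9 and GMP:MA9 (0.206%, with 0.0330% lower in CMP:MA9), and 2 each between STHSC:MA9 and CMP:MA9 (0.363%) and MPP:MA9 and CMP:MA9 (0.115%).

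**Figure D4:**
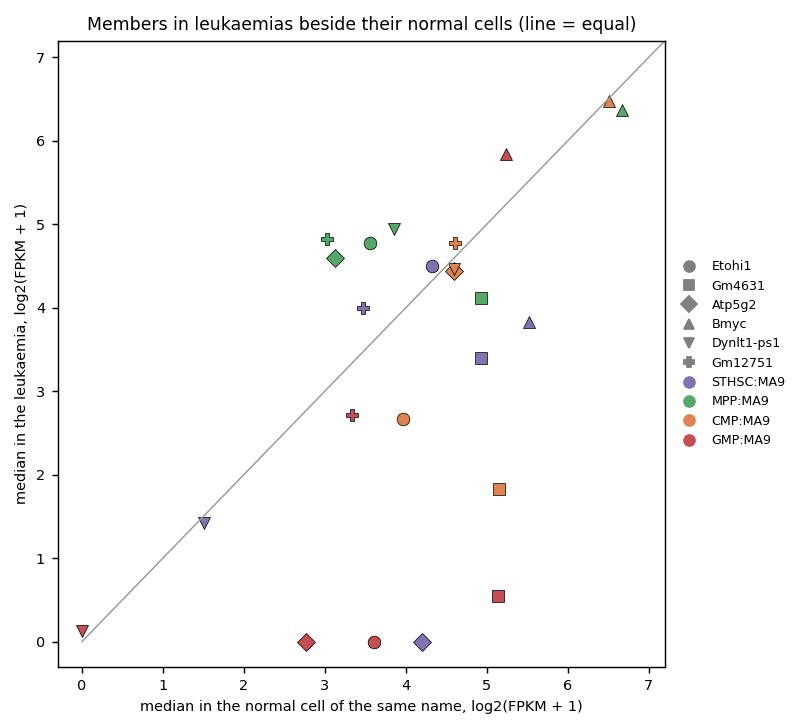
Median log2(FPKM + 1) of each member in a leukaemia group (y axis) against its median in the normal cell of the same name (x axis), 24 points, with symbols for genes, colours for leukaemia groups and a line of equal values. Etohi1 and Gm4631 in GMP:MA9 lie far below the line, with medians of 0 and 0.455 FPKM against 11.2 and 34.2 in GMP, while Dynlt1-ps1 in GMP:MA9 lies near the origin on both axes.

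Genes of the same pathways were counted in the same fits, where 4.82% of all 12128 genes were called in at least 1 leukaemia pair and 24.6% of 12367 in at least 1 normal pair. At that leukaemia share, 0 calls in a list of this size is near the background. Of 15 other tested ATP synthase genes, which include Atp5g1 and Atp5g3 that code for the same subunit c, 0 were called in any leukaemia pair by limma, with 3 pair-wise values at an adjusted p below 0.05, and only Atp5l was called among normal pairs (lower in ST-HSC than in GMP). Atp5g1 had medians between 127.4 and 151.6 FPKM in the 4 leukaemia groups and Atp5g3 between 128.7 and 177.4. Of 6 tested dynein light chain genes, 0 were called in any leukaemia or normal pair, with 1 leukaemia value (Dynlt1c, given above) at an adjusted p below 0.05. The 12 genes that every cell uses gave 0 calls in either fit, with 2 leukaemia values at an adjusted p below 0.05.

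Genes on either side of the members were then examined to ask whether the pattern belonged to a wider region. Of 188 genes within 500000 bases of a member, 69 were tested between leukaemias and 10 were called in at least 1 pair, against 4.82% of all 12128 genes. Of the 10, 7 were zinc finger region genes, which share sequence with Etohi1 and Gm4631. Near Etohi1 and Gm4631 the calls were all zinc finger region genes, led by Gm14326 and Gm14420, and by Gm4724 and Gm14399. Zfp931, at 33673 bases from Etohi1, was higher in MPP:MA9 than in GMP:MA9 by 1.58 ± 0.29 log2 units (adjusted p = 0.00122). Near Atp5g2, Itgb7, an integrin subunit, and Calcoco1, a transcriptional coactivator, were lower in STHSC:MA9 than in MPP:MA9, by -1.40 ± 0.37 (adjusted p = 0.0217) and -1.02 ± 0.32 (adjusted p = 0.0495), and neither was called between GMP:MA9 and MPP:MA9. Near Bmyc only the overlapping A230005M16Rik was called, and near Dynlt1-ps1 and Gm12751 no gene was.

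The genes with the most similar pattern over the 49 samples were sought among 12666 genes whose mean reached 1 FPKM, by Pearson's r of log2(FPKM + 1). For Etohi1 these were Gm14326 (0.93), 1700112E06Rik (0.83) and Gm14420 (0.82), the second of which lies on chromosome 14 and shares no window with it. For Gm4631 they were Gm14420 (0.96), Gm14391 (0.94) and Gm14305 (0.94), all of the zinc finger region. For Bmyc the closest were A230005M16Rik (0.92), Lpar5 (0.79) and Rere (0.78). For Atp5g2 they were Sf3a2 (0.73), Cherp (0.69) and Zfp180 (0.68), for Dynlt1-ps1 Csk (0.78), Ywhag (0.76) and Dctn2 (0.76), and for Gm12751 Tfpt (0.69), Arfgap2 (0.66) and Cyb5r3 (0.63). None of the last 9 shares a window with its member. The exon GC content of these 9 ran from 49.5% to 61.6%.

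A trend on GC content also ran with the groups. For each sample, its differences from the mean of each gene were regressed on exon GC content, giving a slope in log2 units per 10 percentage points of GC. The slope was 0.184 to 0.263 in MPP:MA9 and 0.0115 to 0.121 in CMP:MA9, and was -0.183 to -0.115 in STHSC:MA9 and -0.184 to -0.0746 in GMP:MA9, so its sign parted the same leukaemia groups as Atp5g2 did. In normal cells it was positive in all MPP, CMP and MEP samples and negative in all GMP samples (-0.240 to -0.124), with both signs in ST-HSC and LT-HSC. Exon GC content was 55.3% in Atp5g2, 56.6% in Bmyc, 54.3% in Gm12751 and 50.0% in Dynlt1-ps1, against 39.1% in Etohi1 and 39.4% in Gm4631. With each sample's trend on GC content and length removed, 5 rather than 8 of the 36 normal tests of the members were called. Its part in the zeros of Atp5g2 was not tested, and the labels name no library batch, so a batch that follows the origin cannot be told apart from it.

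**Figure D5:**
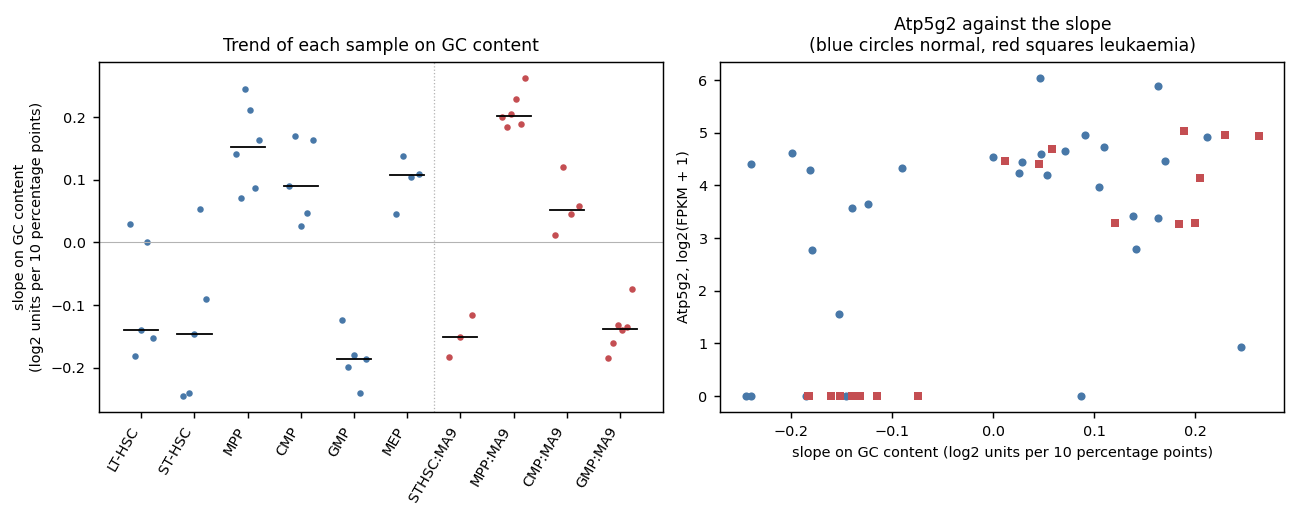
Left, slope of each sample's deviation on GC content (log2 units per 10 percentage points) in the 10 groups, with a line at each median, blue for normal and red for leukaemia. Right, Atp5g2 as log2(FPKM + 1) against that slope for the 49 samples; the 9 leukaemia samples at 0 have slopes between -0.184 and -0.0746, and normal samples with negative slopes lie both at 0 and above it.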

How the data were processed

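The members, gene lists and rules were chosen with earlier results of these data known. Per the labels and the study's methods, RNA of sorted cells was amplified with the NuGen Ovation V2 kit and sequenced on an Illumina HiSeq. The authors deposited FPKM values estimated with RSEM; the submitters' processing notes also name mm9, with no role. IDs in the table run past those of GENCODE M1, while the annotation used here for positions matched 33068 of 38253 genes. Read totals are not in the values, so depth is unknown and no interval from counts was computed. Of 68 columns, 19 matched no sample label and were not used.

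Tests used log2(FPKM + 1), on which fold changes of low genes are understated, for genes whose mean in a fit reached 1 FPKM (12367 in the 30 normal, 12128 in the 19 leukaemia samples), with limma 3.58.1 in R 4.3.3 (trended eBayes, two-sided, Benjamini-Hochberg over all genes of a fit). A call needed both adjusted p below 0.05 and a log2 change over 1 in size; errors are SE. Named were the 6 members, up to 5 genes each that hold at least 10% of a member's 31-base windows, up to 2 called genes within 500000 bases by size of change, the 3 most similar genes, and examples of the gene lists; zinc finger region genes were added after values were seen. Alignments used Biopython 1.88, plots matplotlib 3.10.9, and the rest pandas 2.3.3 and numpy 2.4.6 under Python 3.11.15. The fit was tested on simulated data. Same-numbered samples were not correlated above 0.1 in every pair for any 2 groups, so numbers were not taken to pair them. CMP and GMP came nearest to this, with 4 of 5 pairs above 0.1 and a mean r of 0.157. Fits of only 2 groups, no fold threshold, other scalings, pseudocounts, filters, a replicate block, a GC and length correction and leaving out each sample were tried as alternatives.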

Additional observations from a re-analysis of the deposited data

Results flagged for a closer look

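Over the 6 members and the 9 groups of 4 to 6 samples, 54 sets in all, a highest or lowest sample was compared with its nearest neighbour by Dixon's 95% limit, which chance passes in about 1 of 20 groups, and 3 samples passed it. Gm4631 was 23.94 FPKM in GMP replicate 2, where the nearest other GMP sample had 33.45. Bmyc was 68.42 FPKM in ST-HSC replicate 5, against 50.7 in the nearest. Dynlt1-ps1 was 27.18 FPKM in LT-HSC replicate 3, against 3.42 in the nearest.

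Etohi1 moved in opposite directions from normal cell to leukaemia in MPP:MA9 and GMP:MA9. Every MPP:MA9 sample was above every MPP sample, with a mean change of 1.18 on the log2(FPKM + 1) scale, and every GMP:MA9 sample was below every GMP sample, with a mean change of -3.46. Such a rise was seen for 19.2% of 12663 genes in MPP:MA9, and such a fall for 19.6% of 11976 genes in GMP:MA9. The mean changes of Etohi1 were 4.65 log2 units apart, a difference that was not tested because the gene had been picked on the leukaemia values.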

How the results depend on the processing

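The number of member differences called among normal cells, 8 of 36, was 5 with median-ratio scaling and 5 with the GC and length correction, and ran from 4 (without CMP replicate 1 or 5) to 10 (without ST-HSC replicate 5) when 1 sample was left out. The 16 calls of sequence-sharing genes between leukaemias became 9 with the replicate block and 10 in fits of only the 2 groups compared, and ran from 11 to 20 over omissions. The 17 calls of flanking genes became 10 with the replicate block and 38 with no fold threshold, an alternative chosen after seeing the data, and ran from 11 (without STHSC:MA9 replicate 2) to 19 (without STHSC:MA9 replicate 1). The 14 zinc finger region genes higher in MPP:MA9 than in GMP:MA9 ran from 12 to 14. Since the replicate numbers were not shown to pair the samples, the block is given only as an alternative. The cause of these changes was not tested.

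Among member differences that had not been called, some changed sign. The Etohi1 difference between MPP and GMP was -0.11 with median-ratio scaling and -0.034 with the replicate block, and ran from -0.047 to 0.14 over omissions. With the GC and length correction, Gm4631 in ST-HSC against MPP was -0.10, Atp5g2 in ST-HSC against MPP 0.028 and Gm12751 in MPP against GMP -0.080. Over omissions, Gm4631 ran from -0.13 to 0.19 in ST-HSC against MPP and from -0.11 to 0.10 in CMP against GMP. Atp5g2 ran from -0.75 to 0.45 in ST-HSC against MPP and from -0.17 to 1.02 in ST-HSC against GMP. Gm12751 ran from -0.71 to 0.29 in ST-HSC against MPP, from -0.52 to 0.56 in ST-HSC against GMP and from -0.092 to 0.48 in MPP against GMP. The calls of Bmyc in MPP and in CMP against GMP and of Dynlt1-ps1 in CMP against GMP held under every alternative run. Depth is unknown, so a value listed at 0 cannot be told from one below detection.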
